A study of Mus musculus with 8 samples.

Results

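The genes described here encode the proteins with which cells send and first receive WNT signals: WNT ligands, Frizzled receptors, the co-receptors Lrp5 and Lrp6, the R-spondins and their receptors Lgr4, Lgr5 and Lgr6. They were taken by symbol from the protein-coding rows of the deposited table, which gave 34 of its 21649 genes: 15 WNT ligands, 10 Frizzled receptors, 4 R-spondins, 3 LGR receptors and 2 LRP co-receptors. RNA was sequenced from mouse cells sorted by fluorescence and labelled as non-vascular smooth muscle, in 3 bladder, 3 intestine and 2 lung libraries. All 3 groups shared the genotype Cspg4-Dre, Acta2-CreERT and R26-GFP and were given tamoxifen on 3 days at 0.75 mg per 10 g, and the labels separate the groups by organ alone. In such a line recombination depends on the Cspg4 promoter, active in pericytes, and on the Acta2 promoter, active in smooth muscle, and the labels give no age. Whether each library stands for its own mouse is not labelled. The p-values therefore reflect only how far these libraries vary, part of which may be technical.

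WNT proteins are secreted lipid-modified ligands that bind Frizzled receptors together with LRP5 or LRP6 and stabilise beta-catenin, which then acts with TCF and LEF factors on target genes. Other WNT signals run without beta-catenin through ROR receptors and planar polarity proteins. R-spondins bind LGR receptors and keep the ubiquitin ligases ZNRF3 and RNF43 from removing Frizzled from the cell surface, which strengthens the response. In bladder, gut and lung these signals pass between epithelium and the surrounding mesenchyme, including muscle, during development and repair.

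Reconstructed reads per library ran from 9723047 to 13618517, and 19206 to 20357 genes were above 0. Acta2 was at 2323 to 2933 in all 8 libraries, with no pair called. It was a dense gene, at 0.982, 1.32 and 1.45 reconstructed reads per nt of exon in bladder, intestine and lung. Similar values of such a gene alone do not show equal smooth muscle content. Myh11, the smooth muscle myosin, was at 4423 to 6099 in bladder, 11371 to 12454 in intestine, and 10795 and 10378 in lung. Cspg4, whose promoter drives the Dre recombinase, was at 387 to 433, 4220 to 4617, and 4757 and 4045, 10.7-fold lower in bladder than in either other organ (adjusted p = 5.43e-08 and 5.44e-08). The smooth muscle list of 14 genes summed to 30896 to 36398 in bladder, 45633 to 49620 in intestine and 47545 to 51065 in lung, with none of them at 0. Markers of other cell types were also read. The 12 fibroblast genes summed to 58011 to 65413 in bladder, 37228 to 40012 in intestine and 24875 to 28807 in lung. The 12 intestinal epithelium genes summed to 366 to 496, 17054 to 18439 and 217 to 232 in the same order. Vascular muscle and pericyte genes gave 10881 to 11337, 26640 to 28188 and 22732 to 26241, mesothelium genes 3559 to 5994, 3626 to 3839 and 566 to 1098, and leukocyte genes 3387 to 5925, 3119 to 3464 and 2059 to 2225, with Cd3e at 0 in bladder. General epithelium genes gave 4351 to 6827, 18225 to 19500 and 757 to 1212. The mesothelium list shares Krt19 with the general epithelium list and Upk3b with the urothelium list. Of its 8 genes, 0 were higher and 4 lower in intestine than in bladder. In such bulk libraries, fewer cells of a type and less RNA per cell cannot be told apart.

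Values are normalized read counts as deposited. Differences are in log2(value + 1), from limma fitted to all 8 libraries, with Benjamini-Hochberg adjustment over all 18097 genes tested and a threshold of 0.05. Of the 34 genes, 32 passed the filter on low values (at least 10 in at least 2 libraries). Fzd10, at 0 to 10 in every library, and Rspo4, at 9 in lung library 1 and 0 in the other 7 libraries, did not. Among the 32 tested genes, 27 differed among the 3 organs in the F test, against 62.9% of all genes. Between intestine and bladder 25 of 32 passed, with 13 higher in intestine and 12 lower, against 51.9% of all genes in either direction, 28.7% higher and 23.3% lower. Between lung and bladder 6 were higher in lung and 11 lower, against 41.0% of all genes in either direction, 19.2% higher and 21.8% lower. Between lung and intestine the members again gave 6 higher and 11 lower, against 39.5%, 15.9% and 23.6% of all genes. Pairs that share an organ share its libraries. Wnt3, Wnt9b, Wnt10a and Rspo2, all counted as higher in intestine than in bladder, would not have passed the filter without their intestine libraries. The same held for Wnt10b and its bladder libraries, and for Wnt16 and its lung libraries. With quantile normalization the counts were 8 higher and 13 lower for intestine minus bladder, and 10 and 10 for lung minus intestine. With the deposited scaling undone, which leaves depth uncorrected, those for lung minus bladder were 9 and 9.

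In the test for a gene higher in 1 organ than in both others, 18 genes passed; it says nothing of the order of the other two organs. Bladder had 8 of them (10.3% of all genes were enriched there), namely Wnt2, Wnt2b, Wnt4, Wnt5b, Wnt9a, Wnt10b, Fzd1 and Lrp6. Intestine had 6 (12.5% of all genes), namely Wnt3, Wnt9b, Fzd9, Rspo2, Rspo3 and Lgr4. Lung had 4 (3.06% of all genes), namely Wnt5a, Wnt11, Wnt16 and Lgr6. Wnt16 passed the filter on low values only through its lung libraries. Wnt3, Wnt9b and Rspo2 passed it only through intestine, and Wnt10b only through bladder. The filter thus chose these genes by the organ in which they were then called enriched. Without a filter Wnt3, Wnt9b, Rspo2 and Wnt10b remained enriched. A filter of at least 30 left Wnt3, Wnt9b and Wnt16 untested, while Rspo2 and Wnt10b stayed enriched. With the deposited scaling undone 3 genes remained enriched in bladder, Wnt2, Wnt4 and Wnt5b. That setting leaves depth uncorrected, at 9723047 to 10956022 reads in bladder and 12024074 to 13618517 in the other libraries. It moved the median of all genes to 0.45 in intestine and 0.48 in lung, both minus bladder. The loss of Wnt2b, Wnt9a, Wnt10b, Fzd1 and Lrp6 there cannot be told apart from that shift. With equal totals, as with quantile normalization, all 8 bladder genes stayed enriched. In a fit without an intensity trend 2 remained in lung, Lgr6 and Wnt5a. Leaving out 1 library at a time left 6 to 8 genes enriched in bladder, 5 to 6 in intestine and 3 to 4 in lung. Leaving out a lung library left only 1, and the fit then took its spread from the other organs. Wnt16 was lost without any 1 library other than intestine replicate 3, and also without a filter on low values. Wnt10b was lost without any 1 library other than intestine replicate 1 or 3, and also without a trend. Wnt2b was lost without bladder replicate 1 or 2, and Rspo3 without intestine replicate 1 or 3 or lung replicate 1. Wnt9b was lost with quantile normalization. Fzd8 was enriched in intestine with quantile normalization, and Fzd2 in bladder without lung replicate 2, which left 1 lung library.

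**Figure D1:**
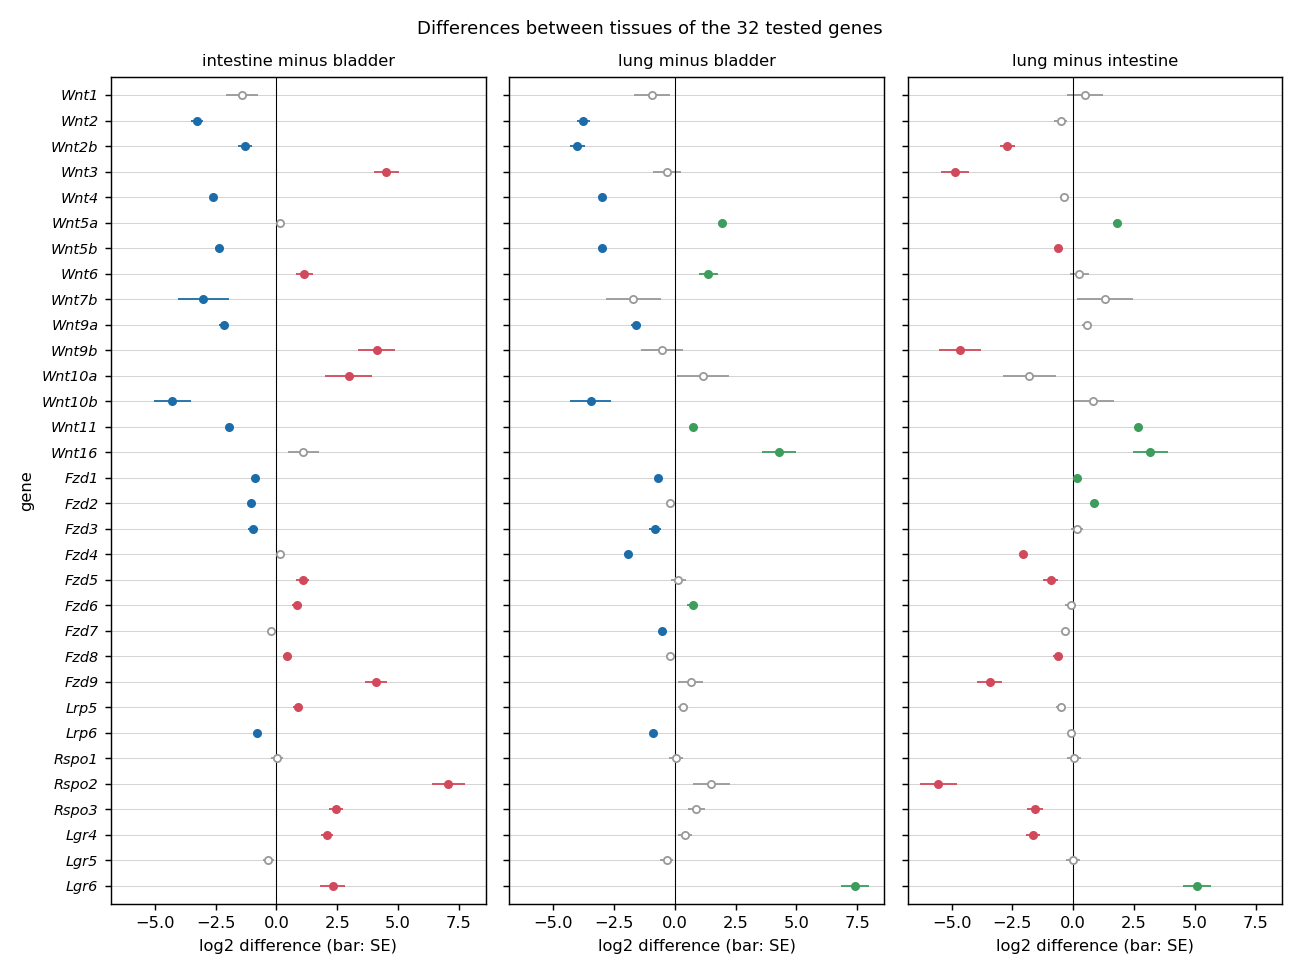
Log2 differences of the 32 tested genes for intestine minus bladder, lung minus bladder and lung minus intestine (x axis), with bars of 1 SE from limma, 1 gene per row. Filled points passed the adjusted threshold of 0.05 and take the colour of the higher organ (blue bladder, red intestine, green lung), and open grey points did not pass; the points farthest from 0 are those of Lgr6 in lung and Rspo2 in intestine.

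Bladder libraries were rich in ligand RNA of 6 genes. Wnt2, a ligand that acts through beta-catenin and is needed for lung formation in the embryo, was the ligand with the highest value per kb of exon in bladder. Its RefSeq promoter is shown because Wnt2 had the largest share of ligand RNA in bladder. It covers the 250 bases before the annotated start, chr6:18030446-18030695 on the minus strand of GRCm38.p6, printed 5′ to 3′, with matches to a HOX core (TTTATNG) and a GC box (GGGCGG), on either strand, in capitals.
Wnt2: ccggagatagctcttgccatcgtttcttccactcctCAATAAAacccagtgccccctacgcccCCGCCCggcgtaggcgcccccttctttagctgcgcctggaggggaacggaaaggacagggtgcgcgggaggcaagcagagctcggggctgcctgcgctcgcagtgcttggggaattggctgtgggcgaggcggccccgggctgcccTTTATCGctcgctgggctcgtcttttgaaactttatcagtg
The HOX core was found at least once in 8.8% of 21262 promoters of protein-coding genes cut to the same length, and the GC box in 42.6%. A match describes letters and shows no bound factor.

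Wnt2 (chromosome 6, 17988939 to 18030584, build mm39) was at 3058, 3019 and 2988 in bladder, 296, 318 and 336 in intestine, and 145 and 335 in lung. The bladder libraries stood apart from the other 5, whose values overlapped between intestine and lung. Wnt2 was 9.54-fold lower in intestine than in bladder (log2 difference -3.25, SE 0.25, limma adjusted p = 5.91e-06) and 12.6-fold lower in lung (-3.77, SE 0.27, adjusted p = 9.1e-06), or 20.8-fold without lung replicate 2. Wnt2 was dense in bladder, at 1.12 reconstructed reads per nt of exon. Lung minus intestine was -0.52 (SE 0.27, adjusted p = 0.165), and -1.12 without lung replicate 2. Its relative Wnt2b (chromosome 3, 104852588 to 104869237) was at 478, 481 and 432 in bladder, 120, 248 and 224 in intestine, and 25 and 31 in lung. No libraries overlapped between organs, and Wnt2b was lower in intestine than in bladder (-1.29, SE 0.27, adjusted p = 0.0031) and lower again in lung than in intestine (-2.71, SE 0.30, adjusted p = 0.000108).

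Wnt5b (chromosome 6, 119409492 to 119521308), often assigned to signals without beta-catenin, was at 2220, 2181 and 2229 in bladder, 349, 436 and 497 in intestine, and 246 and 309 in lung. It was 5.17-fold lower in intestine (log2 difference -2.38, SE 0.14, adjusted p = 1.47e-06) and 7.96-fold lower in lung than in bladder (-3.00, SE 0.16, adjusted p = 1.3e-06). The step from intestine to lung was smaller, -0.62 (SE 0.16, adjusted p = 0.0123), and missed the threshold without lung replicate 1 (-0.45, adjusted p = 0.0702). The Wnt5b locus contains Fbxl14 on the other strand, at 558 to 768 in all 8 libraries. Whether reads were shared between them was not tested.

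Wnt4 (chromosome 4, 137004800 to 137027037), a ligand of kidney and female reproductive tract development, was at 1244, 1218 and 1517 in bladder, 240, 217 and 196 in intestine, and 159 and 170 in lung. Its fold below bladder was 6.09 in intestine (adjusted p = 7.48e-07) and 8.06 in lung (adjusted p = 1.03e-06, limma). Wnt9a (chromosome 11, 59197754 to 59224378), a ligand known from joint and liver development, was at 1785, 1745 and 1801 in bladder, 370, 415 and 401 in intestine, and 783 and 435 in lung. Bladder was again the highest organ without overlap, by 4.49-fold over intestine (log2 difference -2.17, SE 0.18, adjusted p = 1.1e-05) and 2.92-fold over lung (-1.60, SE 0.20, adjusted p = 0.000235). For lung minus intestine Wnt9a gave 0.56 (SE 0.20, adjusted p = 0.0532), and 0.99 without lung replicate 2.

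Wnt10b (chromosome 15, 98668593 to 98676031), a ligand that restrains fat cell formation, was lower in level but as selective, at 84, 66 and 77 in bladder, 0, 5 and 9 in intestine, and 7 and 5 in lung. It fell by 4.28 on the log2 scale from bladder to intestine (SE 0.75, adjusted p = 0.00111) and by 3.46 from bladder to lung (SE 0.84, adjusted p = 0.00945). Without lung replicate 2 the lung difference was -3.25 with an adjusted p of 0.0612. In the same comparisons all 12 fibroblast genes were lower than in bladder, with a median log2 difference of -0.61 in intestine and -1.11 in lung. The 339 genes that averaged at least 1 reconstructed read per nt of exon had medians of -0.40 and -0.42 in these pairs. Whether the fibroblast genes went beyond that shift was not tested. Pdgfra, a fibroblast receptor named here after its values were seen, was at 9933 to 11091 in bladder, 5947 to 6921 in intestine and 1203 to 1244 in lung. Of 10 urothelium genes, 9 were lower in intestine and 10 lower in lung, and their sums were 8874 to 11772 (bladder), 896 to 994 (intestine, with Krt5 at 0) and 273 to 528 (lung, with Upk2 and Krt5 at 0). Their part in the ligand differences was not tested.

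**Figure D2:**
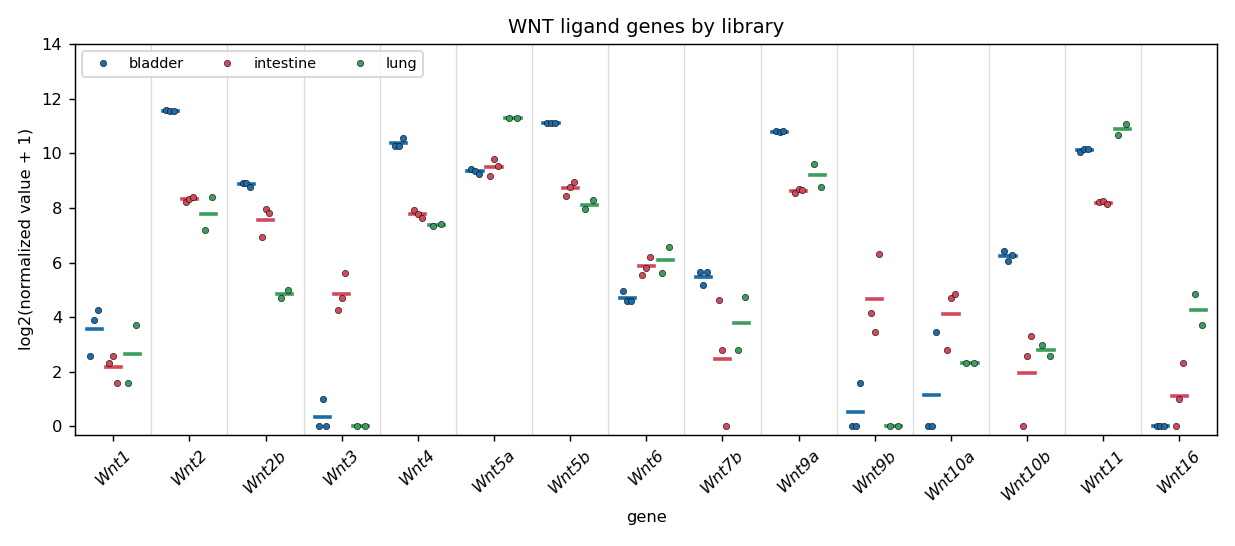
Log2(normalized value + 1) of the 15 WNT ligand genes (x axis) in each library, as points, with a bar at the mean of each organ (blue bladder, red intestine, green lung). Wnt2, Wnt4, Wnt5b and Wnt9a are highest in bladder, Wnt5a and Wnt11 in lung, and Wnt3 and Wnt9b in intestine.

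Lung libraries were rich in Wnt5a and Wnt11, both known for signals that shape tissues without beta-catenin. Wnt5a (chromosome 14, 28226707 to 28249405) was at 685, 658 and 604 in bladder, 568, 883 and 746 in intestine, and 2474 and 2520 in lung. The bladder and intestine libraries overlapped, and both lung libraries lay above them, 3.85-fold over bladder (log2 difference 1.94, SE 0.16, adjusted p = 1.94e-05) and 3.41-fold over intestine (1.79, SE 0.16, adjusted p = 2.7e-05). Intestine minus bladder was 0.15 (SE 0.15, adjusted p = 0.408), and 0.32 (adjusted p = 0.0376) without intestine replicate 1. Within Wnt5a lies Gm2670 on the other strand, at 2 to 20 in bladder and intestine and 52 and 45 in lung. Whether Gm2670 shared reads with Wnt5a was not tested. Wnt5a and Wnt5b thus differed from bladder to lung in opposite directions.

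Wnt11 (chromosome 7, 98484319 to 98504402) was at 1062, 1145 and 1154 in bladder, 293, 302 and 283 in intestine, and 1644 and 2151 in lung. All 3 organs were separate: lung was 1.69-fold above bladder (log2 difference 0.75, SE 0.12, adjusted p = 0.00111) and 6.48-fold above intestine (2.68, SE 0.12, adjusted p = 5.81e-07), and intestine was 3.83-fold below bladder (-1.93, SE 0.11, adjusted p = 1.22e-06). RefSeq gives Wnt11 a pair of starts, and gene values do not show which was used. The promoter of the first is printed because Wnt11 was the ligand of largest share in lung and this window holds several motif types. It is chr7:98834862-98835111, plus strand, GRCm38.p6, with a TATA box (TATAAA), a TCF/LEF core (CTTTGAT) and GC boxes, of which a pair overlap each other, in capitals on either strand.
Wnt11: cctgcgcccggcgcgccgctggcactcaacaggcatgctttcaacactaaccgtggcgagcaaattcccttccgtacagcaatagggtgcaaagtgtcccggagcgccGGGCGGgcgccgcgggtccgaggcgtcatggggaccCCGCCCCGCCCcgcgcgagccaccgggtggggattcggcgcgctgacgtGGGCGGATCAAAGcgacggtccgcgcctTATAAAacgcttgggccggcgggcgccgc
TATAAA was found in 11.6% of the 21262 promoters and CTTTGAT in 2.82%. The GC box and the TCF/LEF core stand side by side in the Wnt11 window without sharing a base.

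Wnt16 (chromosome 6, 22288226 to 22298521), a ligand of bone and joints, was low, at 0 in each bladder library, 0, 1 and 4 in intestine, and 28 and 12 in lung. It was at least 5.53-fold higher in lung than in bladder (adjusted p = 0.00117), counting 3 reads per library as the floor, or at least 3.32-fold without lung replicate 1, and was higher in lung than in intestine (log2 difference 3.17, SE 0.71, adjusted p = 0.00641). Without intestine replicate 1, intestine minus bladder of Wnt16 was 1.66 (adjusted p = 0.0403). Wnt6 (chromosome 1, 74811051 to 74824481), an epithelial ligand in many organs, was at 30, 23 and 23 in bladder, 46, 55 and 73 in intestine, and 48 and 94 in lung. It was lowest in bladder without overlap (intestine minus bladder 1.15, SE 0.35, adjusted p = 0.0209; lung minus bladder 1.38, SE 0.39, adjusted p = 0.0192). The intestine difference of Wnt6 missed the threshold without bladder replicate 2 or 3 or intestine replicate 2 or 3 (adjusted p = 0.0554 to 0.0825), and the lung difference without lung replicate 2 (0.91, adjusted p = 0.145). With quantile normalization the intestine difference of Wnt6 was 0.25 (adjusted p = 0.552). Of 10 lung epithelium genes, 7 were higher and 2 lower in lung than in bladder, and sums of 862 to 950 (bladder, Sftpa1 at 0), 1160 to 1245 (intestine) and 4058 to 4379 (lung). General epithelium genes ran the other way, with 9 of 10 lower in lung than in bladder. Whether either moved the lung ligand values was not tested.

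Intestine libraries held 2 ligands that were almost unread elsewhere. Wnt3, which Paneth cells of the small intestine supply to stem cells (chromosome 11, 103664976 to 103708783), was at 0, 1 and 0 in bladder, 18, 25 and 48 in intestine, and 0 in both lung libraries. It was at least 12.0-fold higher in intestine than in lung (adjusted p = 0.000162) and passed the test against bladder (log2 difference 4.52, SE 0.52, adjusted p = 7.66e-05). Wnt9b (chromosome 11, 103618190 to 103640647), a ligand of kidney tubule formation, was at 0, 0 and 2 in bladder, 17, 10 and 79 in intestine, and 0 in both lung libraries, at least 14-fold higher in intestine than in lung (adjusted p = 0.0023), or at least 5.33-fold without intestine replicate 3. Against bladder the log2 difference of Wnt9b was 4.12 (SE 0.77, adjusted p = 0.00161). For both genes intestine library 3 was the highest.

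Wnt10a (chromosome 1, 74830675 to 74843338), a ligand of skin and teeth, was at 0, 0 and 10 in bladder, 6, 25 and 28 in intestine and 4 in both lung libraries, so bladder and intestine overlapped. Without its intestine libraries Wnt10a would not have passed the filter on low values. Its difference between intestine and bladder was 2.97 (SE 0.96, adjusted p = 0.0265) and missed the threshold without bladder replicate 1 or 2 or intestine replicate 2 or 3 (adjusted p = 0.0909 to 0.097). Without bladder replicate 3, lung minus bladder of Wnt10a was 2.32 (adjusted p = 0.0425). In the F test among organs Wnt10a did not pass (adjusted p = 0.0562). Intestine exceeded both other organs in all 12 intestinal epithelium genes. Cdx1, Cdx2 and Tff3 were at 0 in every bladder and lung library. The part of epithelial RNA in Wnt3, Wnt9b and Wnt10a was not tested.

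Of the remaining ligands, Wnt7b (chromosome 15, 85419638 to 85466674), made by urothelium and lung epithelium, was at 49, 35 and 49 in bladder, 24, 6 and 0 in intestine, and 6 and 26 in lung. It was lower in intestine than in bladder (log2 difference -3.00, SE 1.03, adjusted p = 0.0347), but missed the threshold without any 1 of bladder replicates 1 to 3 or intestine replicates 2 and 3 (adjusted p = 0.0671 to 0.0899). Wnt7b also did not pass the F test among the 3 organs (adjusted p = 0.0728). Wnt1 (chromosome 15, 98687738 to 98691718), a ligand of the midbrain, was at 5, 14 and 18 in bladder, 4, 5 and 2 in intestine, and 2 and 12 in lung, and passed in no pair.

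Among the ligand genes 3 pairs are neighbours on mm39 within 100 kb, an arrangement kept from ancient duplications. Wnt9b and Wnt3 on chromosome 11 lie 24.3 kb apart on opposite strands, facing away from each other, and both were enriched in intestine. Wnt10b and Wnt1 on chromosome 15, 11.7 kb apart and also facing away from each other, did not share a call: Wnt10b was enriched in bladder and Wnt1 passed in no pair. Wnt6 and Wnt10a on chromosome 1, 6.2 kb apart on 1 strand, were both higher in intestine than in bladder, with calls that depended on single libraries as given above.

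As a share of the summed ligand value per kb of exon, which does not depend on scaling between libraries, Wnt2 held 37.9% ± 0.781 (SD, n = 3) in bladder, 19.0% ± 1.21 in intestine and 8.24% ± 3.97 (n = 2) in lung. Wnt5b held 23.5% ± 0.113, 21.6% ± 1.5 and 8.24% ± 0.585 in the same order. Wnt11 held 7.66% ± 0.348 in bladder, 9.64% ± 1.27 in intestine and 36.1% ± 3.6 in lung. Wnt5a held 2.35% ± 0.169, 12.6% ± 1.72 and 25.3% ± 1.95. Wnt9a held 15.1% ± 0.0854, 16.1% ± 1.14 and 14.8% ± 7.18 in that order. The summed ligand value per kb was 3537 ± 44.1 in bladder, 741 ± 85.9 in intestine and 1264 ± 114 in lung. A share falls when another ligand rises, and these shares were not tested.

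**Figure D3:**
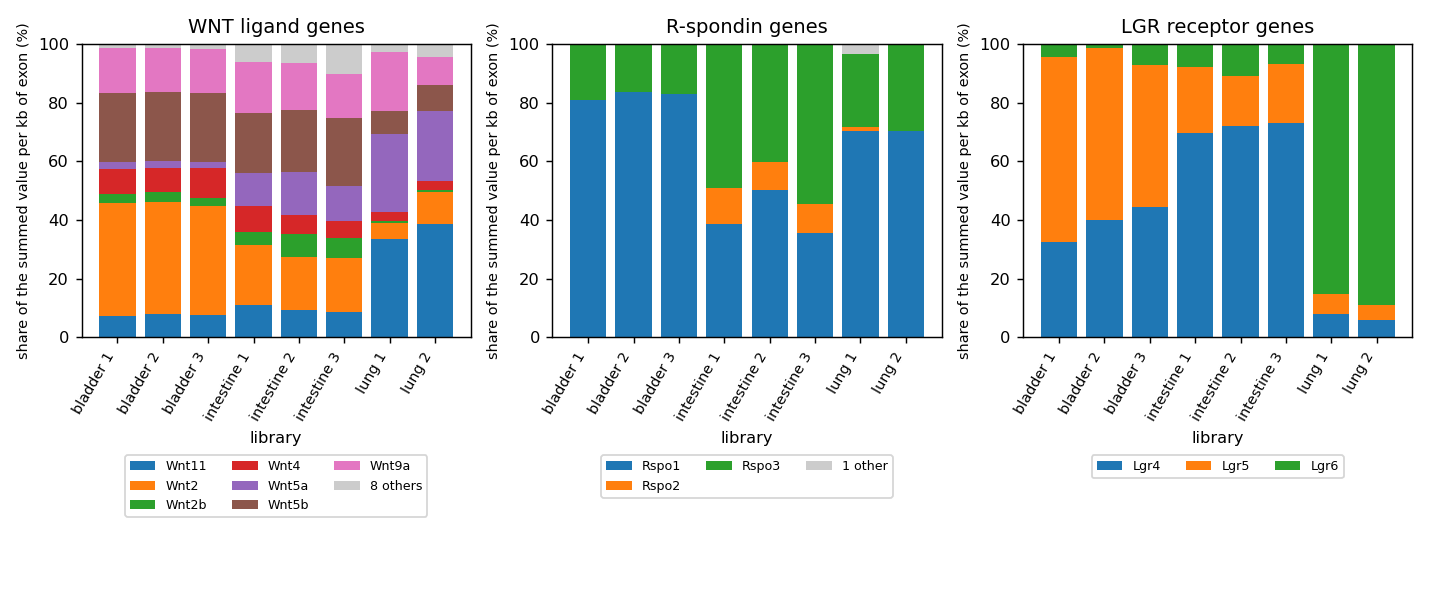
Share of each gene in the summed normalized value per kb of exon (y axis, percent) in each of the 8 libraries (x axis), for WNT ligands, R-spondins and LGR receptors; grey holds the remaining genes of the family. Wnt2 is the widest ligand band in bladder and Wnt11 in lung, Rspo3 and Rspo2 widen in intestine, and Lgr6 fills most of the LGR bar in lung.

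Of the 9 tested Frizzled receptors, Fzd2, Fzd4, Fzd5 and Fzd9 had a log2 difference beyond 1 in at least 1 pair, and the other 5 did not. Fzd1 (chromosome 5, 4803839 to 4808035) had the highest value per kb of the Frizzled genes in every organ, at 6540, 6474 and 6133 in bladder, 3410, 3437 and 3542 in intestine, and 3992 and 3808 in lung. Bladder stood above the others, with log2 differences of -0.88 (SE 0.05, adjusted p = 1.2e-06) in intestine and -0.71 (SE 0.06, adjusted p = 1.35e-05) in lung. Fzd1 averaged 1.09 reconstructed reads per nt of exon over the libraries, with 1.27 in bladder. The 339 genes that averaged at least 1 read per nt had median differences from bladder of -0.40 in intestine and -0.42 in lung. Lung minus intestine was 0.17 (SE 0.06, adjusted p = 0.0361), which missed the threshold without bladder replicate 1 or 2, intestine replicate 1, 2 or 3, or lung replicate 1 (adjusted p = 0.053 to 0.106).

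Fzd2 and Fzd7, close relatives of Fzd1, gave their own patterns. Fzd2 (chromosome 11, 102495222 to 102498884) was at 1740, 1801 and 1918 in bladder, 843, 910 and 897 in intestine, and 1426 and 1814 in lung. Intestine was lowest without overlap, with a log2 difference of -1.04 from bladder (SE 0.10, adjusted p = 2.1e-05), and lung minus intestine was 0.86 (SE 0.11, adjusted p = 0.00022). Fzd2 in lung minus bladder was -0.18 (SE 0.11, adjusted p = 0.226), and -0.35 without lung replicate 2. Fzd7 (chromosome 1, 59521583 to 59526114) was at 1683 to 1844 in bladder, 1431 to 1645 in intestine, and 1430 and 1031 in lung. It was lower in lung than in bladder (-0.53, SE 0.13, adjusted p = 0.0101), but the value was -0.30 without lung replicate 2. With the deposited scaling undone, which leaves depth uncorrected, the value was -0.02. Without lung replicate 1, lung minus intestine of Fzd7 was -0.56. With only intestine and bladder fitted, intestine minus bladder was -0.21 (adjusted p = 0.0348).

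Fzd4 (chromosome 7, 89053563 to 89062342), which also binds Norrin and acts in blood vessels of the eye, was at 2102, 1945 and 1843 in bladder, 2679, 2132 and 1718 in intestine, and 518 and 508 in lung. Bladder and intestine overlapped, and lung was 3.83-fold lower than bladder (log2 difference -1.93, SE 0.16, adjusted p = 1.71e-05) and 4.24-fold lower than intestine (-2.06, SE 0.16, adjusted p = 9.65e-06). Of 10 blood endothelium genes, 6 were higher and 2 lower in lung than in bladder, and the sums were 5242 to 6828 (bladder), 13809 to 15579 (intestine) and 7827 to 8388 (lung), none at 0. All 7 lymphatic endothelium genes were lower in lung than in bladder, whose sums were 6461 to 9122 (bladder), 14264 to 17170 (intestine) and 1360 to 1964 (lung). Their part in the Fzd4 difference was not tested.

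Fzd9 (chromosome 5, 135277792 to 135280084), a receptor of nerve and bone cells, was the Frizzled gene with the largest difference, at 20, 20 and 9 in bladder, 220, 274 and 364 in intestine, and 15 and 41 in lung. The intestine libraries lay above all others, 17.5-fold over bladder (log2 difference 4.10, SE 0.45, adjusted p = 6.16e-05) and 10.2-fold over lung (lung minus intestine -3.44, SE 0.51, adjusted p = 0.000601), or 19.1-fold over lung without lung replicate 2. Enteric neuron and glia genes moved with Fzd9, 12 of 12 being higher in intestine than in bladder, summing to 531 to 604 (bladder, Vip and Chat at 0), 3792 to 4330 (intestine) and 613 to 827 (lung, Sox10 and Chat among those at 0), and intestinal epithelium genes did as given above. Their part was not tested. The Fzd9 promoter is printed as that of the intestine-enriched receptor, chr5:135251048-135251297, minus strand, GRCm38.p6, with a GC box in capitals.
Fzd9: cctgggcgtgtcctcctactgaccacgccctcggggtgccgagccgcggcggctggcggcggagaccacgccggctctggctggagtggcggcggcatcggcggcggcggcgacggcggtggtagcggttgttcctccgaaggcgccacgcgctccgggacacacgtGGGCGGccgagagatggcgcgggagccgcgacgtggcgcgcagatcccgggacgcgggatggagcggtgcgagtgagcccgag
Fzd9 held 42 CG dinucleotides in these 250 bases, where the median of the 21262 promoters was 10.

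The other Frizzled genes gave smaller differences than Fzd9. Fzd8 (chromosome 18, 9212163 to 9218136) was at 942, 1437 and 1370 in bladder, 1918, 1625 and 1497 in intestine, and 1128 and 1013 in lung, with intestine minus bladder at 0.44 (SE 0.16, adjusted p = 0.0429) and lung minus intestine at -0.64 (SE 0.18, adjusted p = 0.0187). Leaving out any 1 library other than bladder replicate 2 or 3 ended the first call of Fzd8 (adjusted p = 0.0532 to 0.159; 0.25 without bladder replicate 1), and leaving out intestine replicate 1 or lung replicate 2 the second (adjusted p = 0.0712 and 0.113). Without bladder replicate 1, lung minus bladder of Fzd8 was -0.39 (adjusted p = 0.0457). Fzd5 (chromosome 1, 64769717 to 64776910), a receptor of intestinal epithelium, was at 89, 66 and 62 in bladder, 111, 158 and 199 in intestine, and 81 and 77 in lung. It was higher in intestine than in bladder (1.08, SE 0.27, adjusted p = 0.00853), but 0.34 (adjusted p = 0.323) with quantile normalization. Lung minus intestine of Fzd5 was -0.93 (SE 0.30, adjusted p = 0.0365) and missed the threshold without intestine replicate 2 or 3 or lung replicate 1 or 2 (adjusted p = 0.0779 to 0.122).

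Fzd3 and Fzd6, receptors of planar polarity in neurons and skin, moved apart. Fzd3 (chromosome 14, 65429898 to 65499912) was at 299, 305 and 259 in bladder, 168, 106 and 180 in intestine, and 179 and 148 in lung, lower in intestine than in bladder (-0.96, SE 0.22, adjusted p = 0.00554) and lower in lung (-0.81, SE 0.25, adjusted p = 0.027). Fzd6 (chromosome 15, 38869429 to 38901583) was at 145, 123 and 180 in bladder, 233, 336 and 242 in intestine, and 260 and 234 in lung, higher in intestine (0.85, SE 0.21, adjusted p = 0.00677) and in lung (0.74, SE 0.23, adjusted p = 0.0292). The lung call of Fzd3 was lost without bladder replicate 1 or 2 or lung replicate 2 (adjusted p = 0.07 to 0.13), and that of Fzd6 without bladder replicate 1 or 2 or lung replicate 1 or 2 (adjusted p = 0.0634 to 0.104). With quantile normalization the intestine difference of Fzd6 was 0.37 (adjusted p = 0.154). With the scaling undone, which leaves depth uncorrected, the lung difference of Fzd3 was -0.30 (adjusted p = 0.308).

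**Figure D4:**
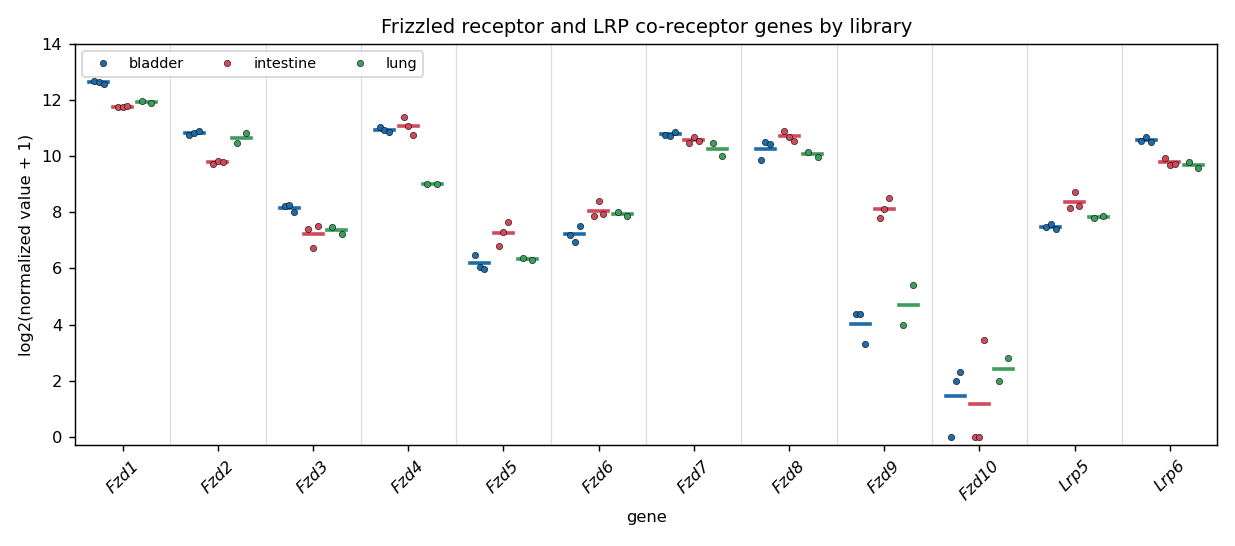
Log2(normalized value + 1) of the 10 Frizzled and 2 LRP co-receptor genes (x axis) in each library, as points, with a bar at the mean of each organ (blue bladder, red intestine, green lung). Fzd1 is highest in all organs, Fzd4 is low in lung, and Fzd9 is raised in intestine.

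Lrp6 was enriched in bladder, while Lrp5 passed in 1 pair, intestine minus bladder. Lrp6 (chromosome 6, 134423439 to 134543928) was at 1507, 1643 and 1452 in bladder, 972, 833 and 851 in intestine, and 894 and 769 in lung, lower than in bladder in intestine (-0.79, SE 0.10, adjusted p = 0.000117) and in lung (-0.88, SE 0.11, adjusted p = 0.000195). Lrp5 (chromosome 19, 3634828 to 3736564), its relative known for bone mass, was at 179, 190 and 169 in bladder, 287, 422 and 295 in intestine, and 224 and 234 in lung. Lrp5 was higher in intestine than in bladder (0.88, SE 0.18, adjusted p = 0.00249; 0.48, adjusted p = 0.0561, with quantile normalization), while lung minus bladder was 0.35 (SE 0.20, adjusted p = 0.188) and lung minus intestine -0.52 (SE 0.20, adjusted p = 0.0628). Of the summed co-receptor value per kb, Lrp6 held 85.9% ± 0.170 in bladder, 65.5% ± 6.32 in intestine and 72.0% ± 2.76 in lung.

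Among the R-spondins, secreted proteins that amplify WNT responses, Rspo2 and Rspo3 were enriched in intestine, whereas Rspo1 did not pass in any pair. Rspo2 (chromosome 15, 42884190 to 43034222) was at 0 in all 3 bladder libraries, 150, 122 and 127 in intestine, and 7 and 0 in lung. It was at least 36.8-fold higher in intestine than in bladder (adjusted p = 2.66e-05) and 38.0-fold higher than in lung (adjusted p = 0.000384), where 1 of the lung libraries was at 0; without that library, lung replicate 2, it was 19-fold. Lung minus bladder of Rspo2 was 1.5 (SE 0.76, adjusted p = 0.148), and 3.00 without lung replicate 2, which rests on 1 lung library at 7. Rspo3 (chromosome 10, 29328412 to 29411863), made by gut stroma and by endothelium, was at 89, 48 and 65 in bladder, 358, 316 and 419 in intestine, and 90 and 165 in lung. The intestine libraries were separate from the rest, 5.41-fold over bladder (2.45, SE 0.30, adjusted p = 0.000106) and 2.86-fold over lung (-1.56 for lung minus intestine, SE 0.33, adjusted p = 0.00479). Lung minus bladder of Rspo3 was 0.89 (SE 0.33, adjusted p = 0.0575), and passed without bladder replicate 1 (1.11, adjusted p = 0.0307). Without lung replicate 1 it was 1.32.

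Rspo1 (chromosome 4, 124880223 to 124902892) was at 236, 153 and 200 in bladder, 177, 247 and 172 in intestine, and 159 and 247 in lung, and all organs overlapped, with differences of 0.02 to 0.04 (SE 0.25 to 0.28). As a share of R-spondin value per kb, Rspo1 held 82.5% ± 1.43 in bladder, 41.5% ± 7.74 in intestine and 70.5% ± 0.0352 in lung. Rspo3 held 17.5% ± 1.43, 47.9% ± 7.10 and 27.3% ± 3.17 in the same order. Intestine exceeded bladder in 9 of 10 blood endothelium genes and was below it in 1, and in lymphatic endothelium it was above in 5 of 7 and below in 1. Their part in Rspo3 was not tested. All 12 fibroblast genes were lower in intestine than in bladder, and their part in Rspo3 was not tested either.

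Among the LGR receptors, Lgr6 was enriched in lung and Lgr4 in intestine. Lgr6, a receptor that marks stem cells of the skin and smooth muscle cells around the airways of the mouse lung (chromosome 1, 134911039 to 135033014), was at 27, 8 and 43 in bladder, 93, 154 and 94 in intestine, and 4606 and 3124 in lung. No libraries overlapped between organs. Lung was 149-fold above bladder (log2 difference 7.41, SE 0.58, limma adjusted p = 1.27e-05) and 34.0-fold above intestine (5.09, SE 0.58, adjusted p = 0.000116), and intestine was 4.37-fold above bladder (2.32, SE 0.52, adjusted p = 0.00422). The 10 lung epithelium genes, of which 7 were higher in lung than in bladder, had a summed value of 4058 to 4379 in the same lung libraries. Their part in Lgr6 was not tested. The promoter of Lgr6 is printed as that of the receptor enriched in lung, chr1:135105277-135105526, minus strand, GRCm38.p6, with a GC box read on the other strand in capitals.
Lgr6: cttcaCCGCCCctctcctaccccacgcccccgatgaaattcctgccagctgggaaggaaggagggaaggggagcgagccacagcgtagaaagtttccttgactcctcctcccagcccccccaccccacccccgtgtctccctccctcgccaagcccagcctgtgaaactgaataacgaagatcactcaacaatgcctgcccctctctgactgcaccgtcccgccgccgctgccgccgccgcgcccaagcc
The TATA box, TCF/LEF core, HOX core and CArG box were not found in the window of Lgr6, which says nothing of factors acting elsewhere. Over the families, 25 promoters of 22 genes matched by symbol. Their median GC content was 69.6%, against 55.6% over the 21262 promoters, and 21 of 25 lay above that median. GC boxes were found in 18 of the 25, a CArG box in 1 (1.39% of all promoters), and the TATA box, TCF/LEF core and HOX core in 2 each.

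Lgr4 (chromosome 2, 109747992 to 109844602), the broadly expressed receptor of the family, was at 165, 180 and 232 in bladder, 700, 872 and 848 in intestine, and 365 and 177 in lung. Intestine was highest without overlap, 4.19-fold over bladder (2.07, SE 0.25, adjusted p = 0.000118) and 2.98-fold over lung (-1.66 for lung minus intestine, SE 0.28, adjusted p = 0.00145), or 4.56-fold over lung without lung replicate 1. Lung minus bladder of Lgr4 was 0.42 (SE 0.28, adjusted p = 0.278), and 0.94 without lung replicate 2. Lgr5 (chromosome 10, 115286216 to 115423685), the marker of intestinal crypt stem cells, passed in no pair. It was at 559, 461 and 444 in bladder, 396, 359 and 404 in intestine, and 556 and 265 in lung. Each of the 12 genes listed for intestinal epithelium was highest in intestine, as given above. Whether epithelial RNA contributed to the Lgr5 values was not tested. The lung libraries of Lgr5 lay on either side of the intestine libraries: lung minus intestine was -0.54 without lung replicate 1 and 0.53 without lung replicate 2. Without lung replicate 1, lung minus bladder of Lgr5 was -0.87. With only intestine and bladder fitted, intestine minus bladder passed at -0.33 (adjusted p = 0.0395).

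Within the LGR value per kb, Lgr5 held 56.7% ± 7.36 and Lgr4 38.9% ± 6.00 in bladder, Lgr4 71.6% ± 1.83 in intestine, and Lgr6 87.2% ± 2.7 in lung. The summed LGR value per kb was 84.0 ± 6.49 in bladder, 191 ± 18.0 in intestine and 650 ± 196 in lung. Each organ thus had a different leading LGR gene per kb, Lgr5, Lgr4 and Lgr6 in that order.

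**Figure D5:**
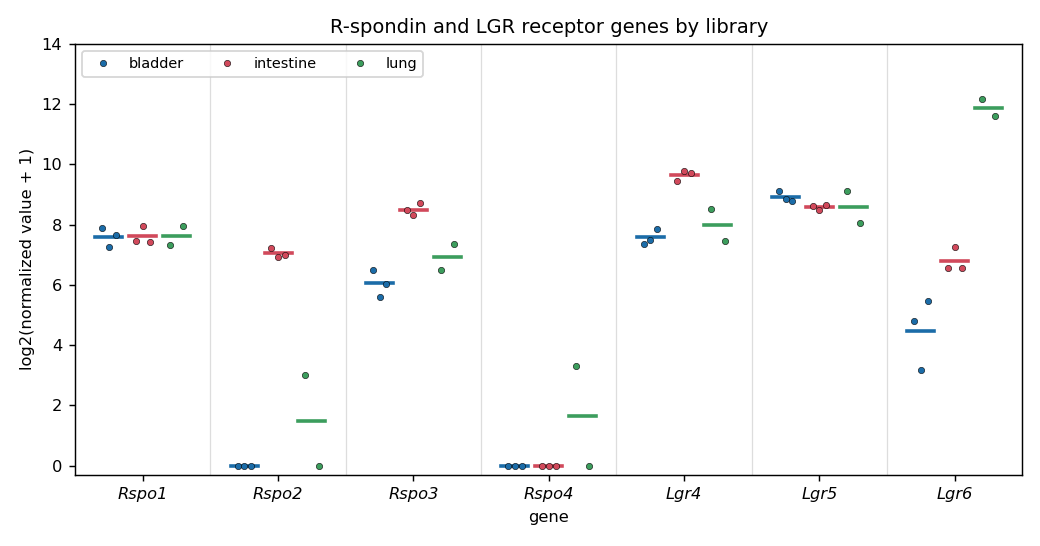
Log2(normalized value + 1) of the 4 R-spondin and 3 LGR receptor genes (x axis) in each library, as points, with a bar at the mean of each organ (blue bladder, red intestine, green lung). Rspo2 is at 0 in bladder and 122 to 150 in intestine before the log, Lgr6 reaches 3124 and 4606 in lung, and Rspo1 overlaps between organs.

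Genes that act beside these families were counted from lists, to be read against the share of all genes called: 28.7% higher and 23.3% lower (intestine minus bladder), 19.2% and 21.8% (lung minus bladder), then 15.9% and 23.6% (lung minus intestine). Counts near these shares are no result about a list. Of 10 genes of ligand release and stability, 9 were lower in intestine than in bladder and 0 higher, with a median log2 difference of -0.74 against 0.06 over all genes tested. In lung minus bladder 3 were higher and 4 lower, and in lung minus intestine 7 were higher and 0 lower. Wls, the carrier that takes WNT proteins to the cell surface, was at 4168, 4254 and 3944 in bladder, 2846, 2833 and 2979 in intestine, and 3162 and 3115 in lung, with intestine minus bladder at -0.51 (SE 0.05, adjusted p = 4.21e-05). Notum, an enzyme that removes the lipid of WNT proteins, was at 1088 to 1253 in bladder, 255 to 316 in intestine, and 566 and 595 in lung, 3.88-fold lower in intestine than in bladder (adjusted p = 1.6e-06). Trabd2b, a protease that cuts WNT proteins, was higher in lung, at 1949 and 1769 against 870 to 985 in bladder and 628 to 787 in intestine (adjusted p = 0.00016 and 1.56e-05).

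Of 9 other WNT receptors and partners, 4 were higher and 3 lower in intestine than in bladder, 3 and 2 in lung than in bladder, and 2 and 4 in lung than in intestine. Ror2, a receptor for WNT5A, was at 171 to 212 in bladder, 963 to 1284 in intestine, and 537 and 781 in lung. It was above bladder by 5.89-fold in intestine (adjusted p = 3.13e-06) and 3.36-fold in lung (adjusted p = 0.000109). Tspan12, a partner of FZD4 in Norrin signalling, was at 358 to 408 in bladder, 1462 to 1719 in intestine, and 456 and 631 in lung, 2.92-fold lower in lung than in intestine (adjusted p = 3.56e-05). Reck, a cofactor of WNT7 ligands, was at 3180 to 3502, 1688 to 1993, and 2239 and 1177.

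Of 5 tested genes that act on Frizzled or Dishevelled turnover, 2 were higher and 2 lower in intestine than in bladder, 0 and 3 in lung than in bladder, and 1 and 3 in lung than in intestine. Rnf43, the ligase that R-spondins block, was at 57, 178 and 109 in bladder, 702, 908 and 913 in intestine, and 4 and 0 in lung, with lung minus bladder at -5.55 (SE 0.65, adjusted p = 0.000153) and lung minus intestine at -8.55 (SE 0.65, adjusted p = 9.6e-06). Its relative Znrf3, named here after its values were seen, was at 156 to 238 in bladder, 179 to 228 in intestine, and 249 and 255 in lung, and passed in no pair. Dact1, a Dishevelled partner, was at 3051 to 3369, 1607 to 1849, and 872 and 945, and Dact3 at 2527 to 2958, 1708 to 1841, and 3005 and 3397. Epithelial genes moved with Rnf43: Epcam, an epithelial surface protein named after its values were seen, was at 109 to 183 in bladder, 2423 to 2658 in intestine, and 32 and 56 in lung. Their part in Rnf43 was not tested.

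Of 14 genes of the beta-catenin core, 10 passed in neither direction between intestine and bladder, 0 were higher and 4 lower. Lung gave 1 higher and 3 lower than bladder, and 4 and 1 against intestine. Csnk1a1, the casein kinase that primes beta-catenin, was at 3600 to 4041 in all 8 libraries, and Gsk3b, the kinase that follows it, was at 1305 to 1492 in bladder, 1007 to 1071 in intestine, and 1340 and 1389 in lung. Btrc, which marks phosphorylated beta-catenin for removal, was at 1197 to 1258 in bladder, 659 to 775 in intestine, and 779 and 756 in lung (adjusted p = 5.27e-05 and 0.000464 against bladder). Of 12 TCF/LEF complex genes, 5 were higher and 4 lower in intestine and the same numbers in lung, both against bladder, and 6 were higher and 2 lower in lung than in intestine. Lef1 was at 230, 165 and 218 in bladder, 13, 17 and 14 in intestine, and 86 and 125 in lung, 13.9-fold lower in intestine than in bladder (adjusted p = 5.52e-06). Tcf7l1, mostly a repressor, was at 2065 to 2200, 1011 to 1087, and 1792 and 1913, and the corepressor Tle1 at 1378 to 1579, 2294 to 2536, and 1718 and 1412.

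Of 12 genes often used as readouts of beta-catenin, some of which sit in other lists, 7 were higher and 3 lower in intestine than in bladder (median log2 difference 0.74), 4 and 7 in lung than in bladder (-0.48), and 4 and 5 in lung than in intestine (-0.15). Sp5, a transcription factor, was at 39 to 56 in bladder, 315 to 448 in intestine, and 18 and 12 in lung (intestine minus bladder 3.07, SE 0.28, adjusted p = 1.78e-05). Nkd1, a feedback inhibitor and the most abundant of them, was at 1504 to 1853 in bladder, 3303 to 3565 in intestine, and 3341 and 2849 in lung, above bladder in both (adjusted p = 1.26e-05 and 0.000122). Axin2, named here after its values were seen, was at 134, 101 and 148 in bladder, 379, 437 and 420 in intestine, and 209 and 308 in lung, higher in intestine (adjusted p = 9.98e-05) and in lung (adjusted p = 0.00643) than in bladder. General epithelium genes were higher in intestine for 9 of 10, and their part in these genes was not tested.

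Of 15 planar polarity genes, 6 were higher and 4 lower in intestine than in bladder, 3 and 2 in lung than in bladder, and 1 and 4 in lung than in intestine. Vangl1, a core membrane protein of the pathway, was at 1726 to 1762 in bladder, 759 to 871 in intestine, and 791 and 690 in lung (adjusted p = 6.85e-06 and 1.22e-05 against bladder). Prickle1, its cytoplasmic partner, was at 1719 to 1950, 955 to 1101, and 713 and 586. Of 12 tested secreted antagonists, with the Kremen receptors of one family, 7 were lower and 3 higher in intestine than in bladder, 7 and 2 in lung than in bladder, and 7 and 4 in lung than in intestine. Wif1, which binds WNT proteins, was at 20, 26 and 27 in bladder, 1377, 1242 and 1298 in intestine, and 607 and 541 in lung, 53.7-fold above bladder in intestine (adjusted p = 7.11e-08). Sfrp4, a soluble relative of Frizzled, ran the other way, at 1833, 1823 and 1765 in bladder, 120, 122 and 110 in intestine, and 565 and 749 in lung, 15.4-fold lower in intestine (adjusted p = 1.12e-07). Dkk3 was the most abundant, at 6721 to 7461 in bladder, 3568 to 3862 in intestine, and 4570 and 4345 in lung.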

How the data were processed

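Gene expression was measured by RNA sequencing of sorted cells in 8 libraries, made with the SMART-Seq v4 kit from at most 10 ng of RNA, per the labels' protocols. That kit does not mark strand. Per the submitters' processing notes the build was mm39 and the tools included featureCounts 2.0.4, STAR 2.7.10a, DESeq2 1.36.0, Trimmomatic 0.39 and Picard 3.0.0, without roles. Gene annotation and strand setting are not given there. The authors' deposited unit is handled as a score, that is, whole numbers spaced like read counts that the authors multiplied by a constant per library and rounded, as read from the values. Dividing by the spacing gave reconstructed reads. Depth was 9723047 to 13618517 reads. A count of 0 allows up to 3 reads, a value of 2.466 to 3.805, for counting error only.

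From these values limma 3.58.1 (R 4.3.3) was fitted with an intensity trend to log2(value + 1), which understates changes of low genes. The fit was tested on simulated data with a common spread and changes in intestine alone, scored for intestine minus bladder. That test does not cover the pairs with lung or genes of larger spread. The fit had a mean per organ. Enriched genes were higher than in both other organs, taking the less significant of the p-values before adjustment. Exon lengths came from GENCODE M21, which covers 96.8% of gene IDs, all 34 members included, and promoters from RefSeq on GRCm38.p6; coordinates of genes are those of the deposited table. Families and lists were chosen with earlier results of these data known. All members are named, as are Acta2, Cspg4 and Myh11, and per pathway list the 2 genes of smallest F test p and the most abundant gene; others are said to be chosen later. A planned comparison of protein sequences was not made. Pseudocount, filter, scaling, trend, fitted organs, replicate block and each library were varied.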

Additional observations from a re-analysis of the deposited data

How the results depend on the processing

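Recomputed under 17 other settings, the 16 counts (family members and all genes per pair and direction, the F test and the 3 enriched sets) were within 1.5 times in 259 of 268 cases. The exceptions follow. With quantile normalization, members higher in intestine against bladder numbered 8 and those higher in lung against intestine 10, and 5172 of all genes were higher in the latter pair. With the deposited scaling undone, all genes higher and lower were 8315 and 1936 in the pair of intestine and bladder and 7946 and 1909 in that of lung and bladder, and 3 members were enriched in bladder. Without a trend 2 were enriched in lung. The setting with the scaling undone leaves depth uncorrected, and the bladder libraries held the fewest reads. Undoing the scaling moved the median of all genes to 0.45 and 0.48 for intestine and lung minus bladder and to 0.07 for lung minus intestine; equal totals moved it to 0.15, 0.12 and 0.01, and quantile normalization to -0.15, 0.03 and 0.18.

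Leaving out 1 library at a time, members higher and lower ranged from 10 to 14 and 11 to 14 for intestine minus bladder, 5 to 7 and 9 to 12 for lung minus bladder, and 5 to 8 and 10 to 11 for lung minus intestine. Without 1 lung library, the other is assumed to vary like the other organs. Of 59 called differences of members, 43 were called in every setting that tested them and 16 were lost in at least 1. Of 37 uncalled differences, 21 were called in at least 1. In 23 of the uncalled differences, and in 0 of the called ones, the sign turned in at least 1 setting. In 1 of them the turned value passed the threshold: Lgr5 in lung minus intestine, 0.53 without lung replicate 2 and -0.54 without lung replicate 1, against -0.01 with both. The cause was not tested.

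Replicate numbers gave no visible pairing of the libraries: same-numbered libraries of different organs had correlations of deviations from -0.026 to 0.058. Differently numbered ones had -0.072 to 0.072. Deviations were taken from the mean of each organ, which ties these correlations together, so a weak pairing could be missed. With a replicate block, members higher and lower numbered 12 and 12 (intestine minus bladder), then 5 and 10 (lung minus bladder), and 5 and 10 (lung minus intestine), 28 differed in the F test, and 7, 6 and 3 were enriched in bladder, intestine and lung. Wnt10b and Wnt16 were the members that the block removed from the enriched sets. Low members such as Wnt1, Wnt3, Wnt9b, Wnt10a and Wnt16 rest on few reads.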

Other observations

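Among tested members with a mean of at least 100 in the organ, the highest library exceeded the lowest by more than 1.5 times in 2 of 19 in bladder, 7 of 24 in intestine and 6 of 20 in lung, against 8.42%, 8.51% and 17.9% of all genes chosen the same way. In lung the 6 were Wnt2, Wnt9a, Rspo1, Rspo3, Lgr4 and Lgr5. Lung library 1 was the higher for Wnt9a (783 against 435), Lgr4 (365 against 177) and Lgr5 (556 against 265), and library 2 for Wnt2 (335 against 145), Rspo1 (247 against 159) and Rspo3 (165 against 90). In intestine they were Wnt2b, Wnt5a, Fzd3, Fzd4, Fzd5, Fzd9 and Lgr6, and in bladder Fzd8 and Rspo1. These counts describe the libraries and were not tested.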
